A study of Mus musculus with 74 samples.

Results

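Genes for scavenger receptors, cholesterol exporters and secreted lipases were followed across 18 RNA libraries of mouse macrophage lines. The 9 genes were taken by name from the 24851 listed in the deposited RNA tables. They are the class B receptors Cd36, Scarb1 and Scarb2, the class A receptors Msr1 and Marco, the exporters Abca1 and Abcg1, and the lipases Lpl and Lipg. The match itself used names alone, but the list was chosen by the levels of these genes across lines and times in these same libraries, so the count of members that changed is a description and supports nothing by itself. Of the 9, 8 passed the filter on low values, a mean of at least 1 normalized read, and Marco did not.

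Scavenger receptors bind oxidised or acetylated lipoproteins and, unlike the LDL receptor, are not shut off when the cell fills with cholesterol. Surplus cholesterol is stored as esters or leaves through ABCA1, which loads lipid-poor apolipoprotein A-I, and ABCG1, which feeds HDL particles. Both exporter genes are classical targets of the oxysterol receptors LXR, while CD36 and lipoprotein lipase are known targets of PPAR gamma, a nuclear receptor for fatty acids.

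RAW264.7 is a mouse macrophage-like line from a tumour, and the lines 264 and 3205 derive from it. The series describes wild type and hypomorphic cells and CRISPR double knockouts of H3f3a and H3f3b, the pair of genes for the replacement histone H3.3, but the labels do not say which description belongs to which number, nor whether a line is 1 clone. Each line was sampled without stimulation (0 min) and after 60 or 120 min of lipopolysaccharide (LPS), the bacterial cell wall component sensed by TLR4, with 2 libraries per group and 9 groups. The sources used here give no dose for the lines, and the other 56 of the 74 samples, among them primary macrophages, ChIP and line 3205 with H3.3 forms added, were not analysed here. The deposited tables of ChIP genes, with 193 and 195 genes, listed 0 of the 9 members.

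Libraries held from 13084927 to 53860392 reads. H3f3a stood at 2926 and 2055 normalized reads in unstimulated RAW264.7, at 188 and 236 in line 264 and at 76.2 and 63.4 in line 3205, where a normalized read is a read count divided by 1 size factor per library. H3f3b had reads in every library, and at 0 min stood at 15367 and 13623 in RAW264.7, with 5642 and 7145 for line 264 and 7177 and 7437 for line 3205. All 10 macrophage markers had reads in every group, with Csf1r between 42390 and 67668 in the 6 unstimulated libraries. Against RAW264.7 at 0 min, 1 of the 10 was called higher (Fcgr1) and 3 lower (Lyz2, Cd14 and Spi1) in line 264, and 2 higher (Fcgr1 and Mertk) and 2 lower (Lyz2 and Cd14) in line 3205. Fcgr1 gave log2 fold changes of 1.11 ± 0.17 and 1.14 ± 0.17 in lines 264 and 3205 (limma adjusted p 0.00196 and 0.00177). Lyz2 was lower than in RAW264.7 at 0 min in both lines by limma (log2 fold change line 264 at -2.27 ± 0.33 with adjusted p = 0.00138, line 3205 at -1.41 ± 0.33 with adjusted p = 0.0185). The 4 endothelial markers summed to 10.4 and 10.9 in unstimulated RAW264.7, 49.1 to 63.3 in line 264 and 117 to 169 in line 3205, and none of the 4 was at 0 reads in line 264. In the same order, the 7 osteoclast markers found summed to 345 to 1076, 560 to 1105 and 637 to 1158. The 6 neutrophil markers summed to 98.4 to 115, 100 to 212 and 343 to 514. Nearly all of each neutrophil sum was Cebpe, at 112 and 96.1, 208 and 98.3, and 505 and 331. Of the 6 neutrophil markers, 5, 5 and 3 were at or below 3 reads. Of the 6 osteoclast markers tested, line 264 had 5 lower and 1 higher than RAW264.7 at 0 min, and line 3205 had 1 lower (Ctsk) and 1 higher. The higher one was Itgb3 in both, with 15.2 and 5.79 in RAW264.7 against 1012 and 476 for line 264 and 297 and 90.9 for line 3205. Of the 4 endothelial markers, 1 was called higher than in RAW264.7 at 0 min in line 264 and 2 in line 3205, and 0 lower. Beside these marker counts, 13.2% and 14.3% of all genes were called in lines 264 and 3205 at 0 min. Those called lower were 5.57% and 5.89% of all genes. Found markers of B cells, T and NK cells, fibroblasts, adipocytes and hepatocytes summed to at most 11.1 per list in any library. The part of these differences in the results below was not tested. Nothing says that the 2 libraries of a group came from separate cultures, so each p-value reflects only how far these libraries differ, a spread that may be technical. In bulk RNA, fewer expressing cells and less RNA per cell cannot be told apart.

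The first question was how the edited lines differed from RAW264.7 at rest and under LPS. Cd36, Msr1, Lpl and Lipg were far lower in both lines at every time, while Scarb1 and Scarb2 stood within 1.28-fold between any of the lines at a given time. Abca1 was higher in line 3205 than in line 264 at every time, and the group mean of Abcg1 was highest in line 3205 at every time. At 0 min 4 of the 8 tested members were called in line 264 against RAW264.7, all 4 lower, where 13.2% of the 17301 genes tested were called and 5.57% were called lower. In line 3205 there were 5, 1 higher and 4 lower, where 14.3% of all genes were called, 8.42% higher and 5.89% lower. At 60 min 4 (15.3% of all genes) and 6 (15.4%) were called, and at 120 min 5 (13.5%) and 4 (13.9%), in lines 264 and 3205. A call is a Benjamini-Hochberg adjusted p below 0.05 in a limma fit over all genes, on log2(value + 1), a scale that understates the change of genes near 0. Log2 fold changes below, with their standard errors, come from this fit over 2 libraries per group, and a bare number in parentheses beside one is its limma adjusted p. The median member at 0 min stood at -4.43 in line 264 and -1.37 in line 3205 on that scale, with genes at 0 reads taken at the fit or at their bound, beside medians of 0 and -0.00258 over all genes. No member lies near the first of these medians, which falls between Abca1 and Msr1, and Lipg, with no read in either line at 0 or 60 min, passed the filter on mean level through RAW264.7 alone. The members were chosen with these levels known, so the medians are a description. Both comparisons share the RAW264.7 libraries.

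**Figure D1:**
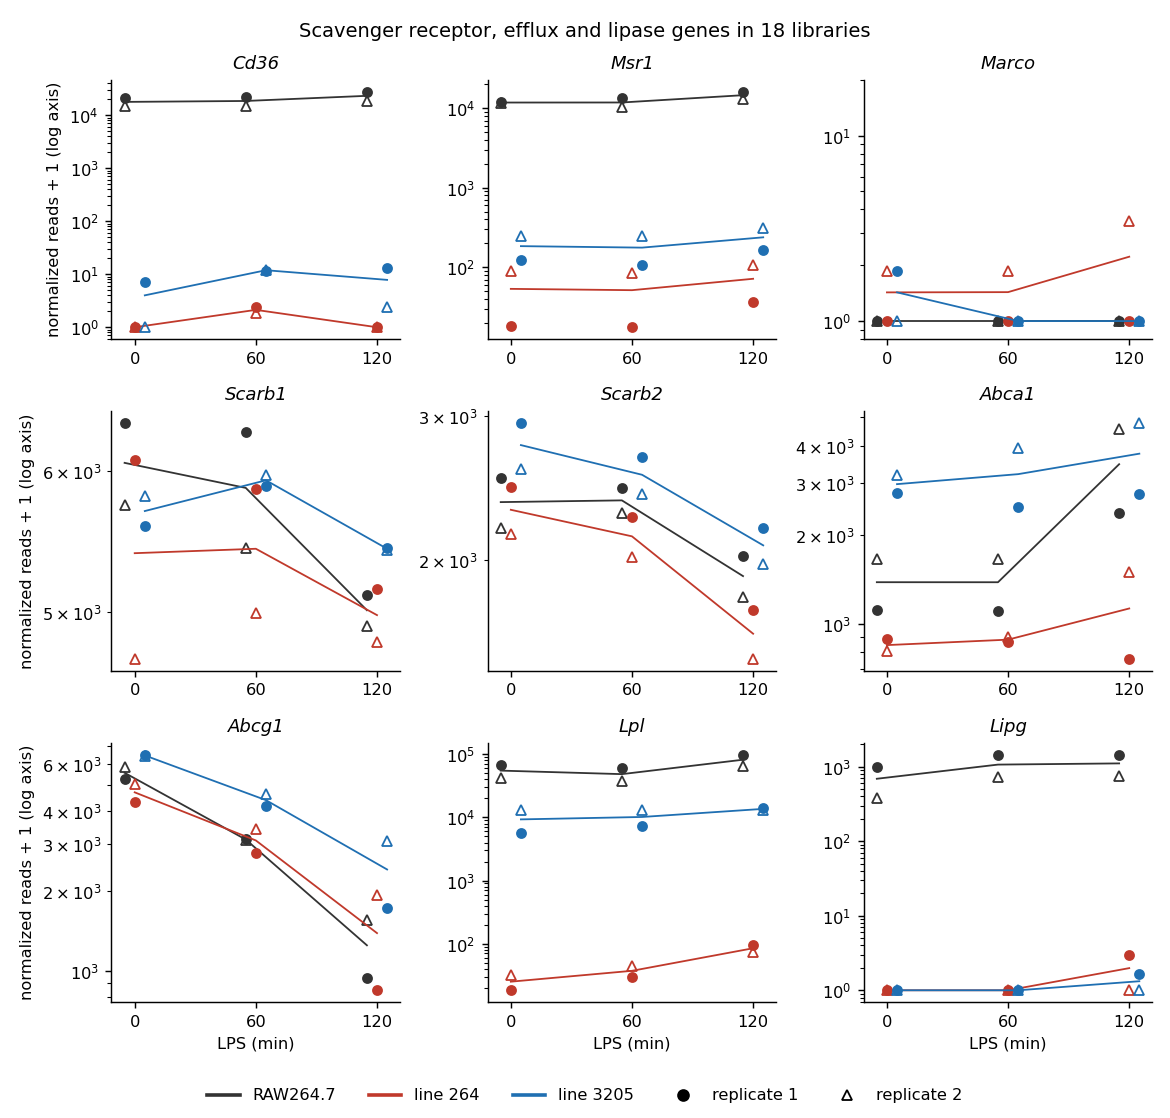
Normalized reads plus 1 (log axis) of the 9 genes against minutes of LPS. Each symbol is 1 library, lines join the means of 2 libraries, and colours mark RAW264.7, line 264 and line 3205. Cd36, Msr1, Lpl and Lipg of RAW264.7 lie above both other lines at all 3 times, and Marco is at or below 2.45 normalized reads everywhere.

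Cd36 encodes the receptor for oxidised LDL and long-chain fatty acids (chromosome 5, 17781690 to 17888959, GRCm38). RAW264.7 had 20801 and 14783 normalized reads at 0 min, 22021 and 15036 at 60 min, and 27929 and 18410 at 120 min. Line 264 had no read at 0 or 120 min and 1.39 and 0.864 normalized reads at 60 min. Line 3205 had 5.99 and 0, then 10.6 and 11.2, then 12.3 and 1.39. RAW264.7 libraries thus stood apart from all others by 3 orders of magnitude or more, and the 3 RAW264.7 groups overlapped one another. Taking the floor of 3 reads over the group, Cd36 was at least 13520-fold lower in line 264 than in RAW264.7 at 0 min and at least 14100-fold lower at 120 min. Line 3205 was 5122-fold lower at 0 min on 7 reads (95% counting interval 2486 to 12740), 1788-fold at 60 min (1279 to 2582) and 3281-fold at 120 min (2146 to 5301). All 6 limma comparisons with RAW264.7 were called, with adjusted p from 1.53e-06 to 2.89e-05. The few reads of line 3205 exceeded those of line 264 in the counts, 34 against 3 at 60 min, but the limma adjusted p was 0.298, 0.0559 and 0.145 at 0, 60 and 120 min. With the replicate number as a block these became 0.121, 0.0117 and 0.0262 (edgeR with the block gave 0.0495 at 0 min and 0.00621 at 60 min, and DESeq2 0.0341 and 0.00415, while limma on only the groups compared gave 0.0402 and with a pseudocount of 5 gave 0.0463 at 60 min), and without line 3205 replicate 2 the 0 min value was 0.00276. Counting intervals here and below cover counting error only.

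Scarb2 encodes LIMP-2, a lysosomal membrane protein that carries glucocerebrosidase (chromosome 5, 92441311 to 92505657), and it belongs to the same class B family as Cd36. Its 18 libraries ran from 1513 to 2940 normalized reads. At 0 min it stood at 2516 and 2190 in RAW264.7, against 2455 and 2150 for line 264 and 2940 and 2586 for line 3205, so that RAW264.7 overlapped line 264 and lay below line 3205 in both libraries. The limma log2 fold change at 0 min was -0.03 ± 0.13 in line 264 (adjusted p = 0.941), while line 3205 gave 0.23 ± 0.13 (adjusted p = 0.305, or 0.0473 with the replicate block). Line 3205 against line 264 gave 0.26, 0.25 and 0.36 at the 3 times, not called (adjusted p 0.28, 0.317 and 0.182) except with the block (0.0335, 0.0423 and 0.0113). The highest group mean was line 3205 at 0 min (2763) and the lowest line 264 at 120 min (1623), and of the 8 neighbouring pairs of groups in that order only the last 2 groups did not overlap.

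The stretches upstream of a Cd36 and a Scarb2 start are shown because these 2 relatives, both on chromosome 5, contrast in the edited lines, Cd36 with few or no reads and Scarb2 near the level of RAW264.7. RefSeq promoter entries (GRCm38.p6) matched 4 of the 9 members, Cd36, Marco, Scarb2 and Abca1. The Cd36 window, chr5:17835897-17836146 on the minus strand, lies inside the span of the gene, upstream of 1 of its starts, and the Scarb2 window is chr5:92505658-92505907 on the minus strand. Capitals mark motif matches.
Cd36: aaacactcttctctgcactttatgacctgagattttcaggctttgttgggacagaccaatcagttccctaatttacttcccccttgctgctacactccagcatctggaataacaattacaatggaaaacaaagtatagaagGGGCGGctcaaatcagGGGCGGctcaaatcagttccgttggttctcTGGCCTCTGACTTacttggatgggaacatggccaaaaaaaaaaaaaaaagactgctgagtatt
Scarb2: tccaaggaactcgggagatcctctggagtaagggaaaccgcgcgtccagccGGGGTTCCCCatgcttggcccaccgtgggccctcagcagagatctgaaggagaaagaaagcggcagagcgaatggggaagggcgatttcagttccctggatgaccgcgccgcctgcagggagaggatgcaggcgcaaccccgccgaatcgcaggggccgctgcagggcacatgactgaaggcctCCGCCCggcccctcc
Motifs were searched on both strands in the 250 bases before the start: TGANTCA (AP-1), CACGTG (E-box), GGGCGG (GC box), GAGGAA (PU.1 core), the kappaB consensus, and a pair of AGGTCA spaced by 4 bases (the LXR type) or by 1 base (the PPAR type) with at most 2 mismatches. Of 32817 promoters, 6.75% held the AP-1 motif, 6.02% the E-box, 32.7% a GC box, 23.3% the PU.1 core, 7.25% the kappaB consensus, 2.57% the pair spaced by 4 and 3.23% the pair spaced by 1. Cd36 held 2 GC boxes, 109 to 104 and 93 to 88 bases before the start, and 1 pair spaced by 1 on the minus strand with 2 mismatches, 63 to 51 bases before it. Scarb2 held 1 kappaB match, 199 to 190 bases before the start, and 1 GC box, 15 to 10 bases before it. Abca1 held 1 E-box and 2 GC boxes, and Marco 1 PU.1 core. Of the 250 Abca1 bases, the 93 nearest the start lay inside the span of the gene. The GC box 97 to 92 bases before the start reached into them. No match in Cd36 or Scarb2 overlapped another, and a match is a description of these letters, not a binding site.

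Scarb1 encodes SR-BI, the HDL receptor that takes up cholesteryl ester and moves cholesterol both ways (chromosome 5, 125277087 to 125341094). Its 18 libraries lay between 4705 and 6381 normalized reads. RAW264.7 had 6381 and 5741 at 0 min, line 264 had 6081 and 4705, and line 3205 had 5585 and 5805, and these ranges overlapped. No line or LPS comparison was called, and the limma log2 fold changes against RAW264.7 ran from -0.18 ± 0.15 (line 264 at 0 min) to 0.11 ± 0.14 (line 3205 at 120 min). In the order of group means, from 6061 in unstimulated RAW264.7 to 4978 in line 264 at 120 min, 7 of the 8 neighbouring pairs overlapped.

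Msr1 encodes SR-A, the trimeric receptor for acetylated LDL and bacterial ligands (chromosome 8, 39543232 to 39642750). RAW264.7 had 12037 and 11505 normalized reads at 0 min, 13335 and 10244 at 60 min, and 16190 and 12928 at 120 min. Line 264 had 17.3 and 88.1, 16.7 and 84.7, and 35.3 and 106, and line 3205 had 122 and 245, 105 and 247, and 164 and 311. Replicate 2 was the higher library in every group of both edited lines, and every edited library lay below every RAW264.7 library. The ratio of RAW264.7 to line 264 was 219 at 0 min (95% counting interval 183.3 to 263.9) and to line 3205 67.9 (61.0 to 75.7). All 6 comparisons with RAW264.7 were called, and at 0 min limma gave -8.19 ± 0.83 (adjusted p = 0.000147) and -6.08 ± 0.83 (adjusted p = 0.000973). Line 3205 stood 3.23-fold above line 264 at 0 min, which was not called at any time (adjusted p 0.16, 0.178 and 0.167) unless the replicate block was used (0.0243, 0.0273 and 0.0258).

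Marco, the collagenous class A receptor of some tissue macrophages (chromosome 1, 120474538 to 120505024), had no read in the 6 RAW264.7 libraries. The highest library, 1 of line 264 at 120 min, had 2.45 normalized reads. It was not tested.

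Lpl encodes lipoprotein lipase, which releases fatty acids from triglyceride-rich lipoproteins (chromosome 8, 68880555 to 68906932). RAW264.7 had 68375 and 41751 normalized reads at 0 min, 59650 and 37185 at 60 min, and 98859 and 64966 at 120 min. Line 264 had 17.3 and 30.8, then 29.2 and 43.2, then 95.2 and 72.1. Line 3205 lay in between with 5627 and 12971, then 7258 and 13049, then 14045 and 13232. The 3 lines did not overlap at any time. The ratio of RAW264.7 to line 264 was 2288 at 0 min (counting interval 1758 to 3037), and RAW264.7 exceeded line 3205 by 6.38-fold. Limma gave -11.11 ± 0.47 (adjusted p = 4.79e-07) and -2.64 ± 0.47 (adjusted p = 0.00424) at 0 min, and the log2 fold change of line 3205 over line 264 was 8.47, 8.06 and 7.34 at 0, 60 and 120 min (adjusted p 3.63e-06, 5.38e-06 and 5.85e-06). The call for line 3205 against RAW264.7 at 60 min (-2.27, adjusted p = 0.00898) was lost without RAW264.7 replicate 1 (-1.93, 0.0802) or line 3205 replicate 1 (-1.85, 0.0764) of that time.

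Lipg encodes endothelial lipase, which acts mainly on HDL phospholipids. RAW264.7 had 995 and 374 normalized reads at 0 min, 1406 and 716 at 60 min, and 1446 and 755 at 120 min. The 2 edited lines had 0 reads at 0 and 60 min, and 1.96 (line 264) and 0.645 (line 3205) normalized reads in 1 library each at 120 min. RAW264.7 was at least 525-fold higher than line 264 and at least 464-fold higher than line 3205 at 0 min, with the floor of 3 reads over the group. All 6 limma comparisons were called (adjusted p from 2.4e-06 to 1.69e-05), but with DESeq2 those at 0 and 60 min had adjusted p from 0.0554 to 0.0988. Lipg passed the filter on mean level through RAW264.7 alone, so these calls are a description.

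**Figure D2:**
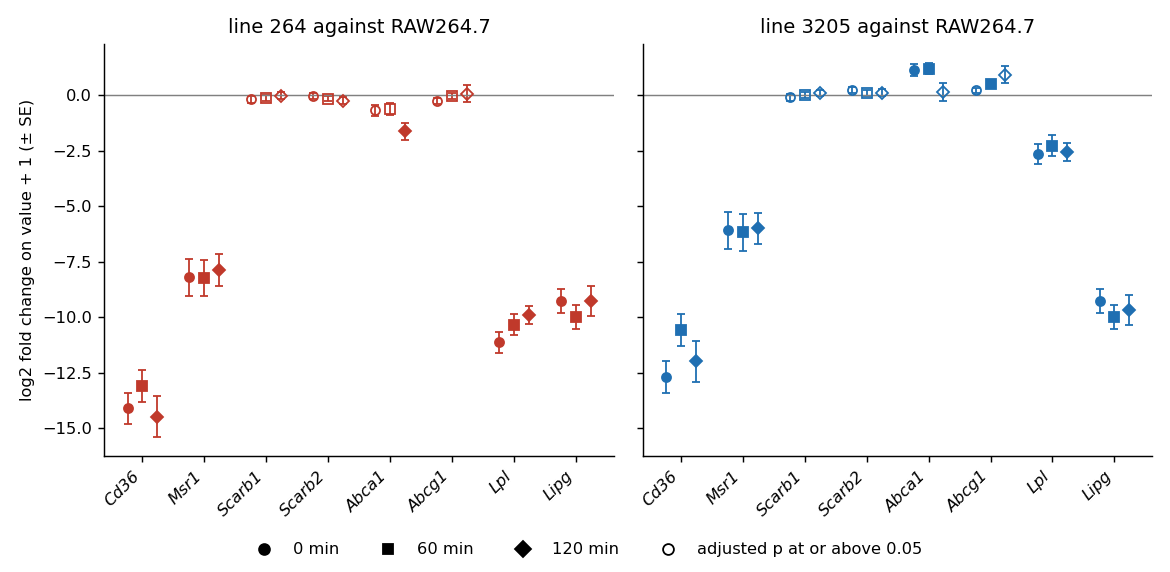
Limma log2 fold changes of line 264 (left) and line 3205 (right) against RAW264.7 at 0, 60 and 120 min for the 8 tested genes, on log2(value + 1). Bars are standard errors, n = 2 libraries per group, and open symbols have an adjusted p at or above 0.05. Points for Cd36 and Lipg rest on groups at or near 0 reads and are no bound on the true fold.

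Abca1, the exporter to apolipoprotein A-I (chromosome 4, 53030789 to 53159988), was present in all lines. At 0 min it stood at 1113 and 1648 normalized reads in RAW264.7, against 884 and 807 for line 264 and 2755 and 3171 for line 3205, and the 3 lines did not overlap. At 60 min it stood at 1101 and 1658, 865 and 899, and 2474 and 3931. At 120 min it stood at 2367 and 4553, 760 and 1489, and 2744 and 4768, where RAW264.7 overlapped line 3205. The log2 fold change of line 3205 over line 264 was 1.81 ± 0.26, 1.82 and 1.76 at the 3 times (limma adjusted p 0.00192, 0.00183 and 0.0213). Over RAW264.7 the log2 fold change of line 3205 was 1.13 at 0 min (adjusted p = 0.0184) and 1.21 at 60 min (0.0123), both called, and 0.14 ± 0.40 at 120 min (0.881). Line 264 was lower than RAW264.7 at 120 min by limma (-1.62 ± 0.40, adjusted p = 0.0228), with -0.68 at 0 min (0.139, or 0.0202 with the replicate block) and -0.62 at 60 min (0.163, or 0.0291 with the block).

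Several of these Abca1 calls rested on single libraries. Line 3205 against RAW264.7 at 0 min was lost without RAW264.7 replicate 1 (0.84, adjusted p = 0.15), without either library of line 3205 (0.0505 and 0.0794), and when fitted with the 120 min libraries (0.109). At 60 min it was lost without RAW264.7 replicate 1 (0.107) or line 3205 replicate 2 (0.104). At 120 min, line 264 against RAW264.7 was lost without RAW264.7 replicate 2 (0.164) or line 264 replicate 1 (0.147), and line 3205 against line 264 without line 264 replicate 1 (0.148) or line 3205 replicate 2 (0.138). These 2 calls at 120 min were also lost without an intensity trend (0.0595 and 0.0594) and with only the groups compared (0.0846 and 0.0931).

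Abcg1, the exporter that feeds HDL (chromosome 17, 31057694 to 31117984), stood at 5280 and 5845 normalized reads in unstimulated RAW264.7, against 4330 and 5065 for line 264 and 6514 and 6416 for line 3205. These ranges did not overlap, yet neither line was called against RAW264.7 (limma log2 fold changes of -0.25 ± 0.13 and 0.22 ± 0.13, adjusted p 0.302 and 0.345). At 60 min line 3205, with 4170 and 4612, exceeded RAW264.7, with 3143 and 3102, by a log2 fold change of 0.49 ± 0.13 (adjusted p = 0.0314), and line 264, with 2778 and 3417, by 0.51 ± 0.13 (0.0362). The first of these was lost without any 1 of its 4 libraries (adjusted p from 0.0798 to 0.194), and the second without line 264 replicate 1 (0.258) or either library of line 3205 (0.102 and 0.22). Without an intensity trend they had adjusted p of 0.0772 and 0.0919, and the second 0.0982 with only the groups compared. At 120 min the log2 fold change of line 3205 was 0.93 over RAW264.7 and 0.85 over line 264, not called (0.155 and 0.252) except with the block (0.0189 and 0.0363). In line 3205 against line 264, 2, 3 and 2 members were called at 0, 60 and 120 min, where 10.4%, 10.2% and 9% of all genes were called. With the block these counts were 5, 6 and 6, with no like share of all genes beside them. The block raised the calls over all genes too, in each comparison where both totals are given below.

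The second question was how each line answered LPS. Abcg1 was lower at 60 min and lower again at 120 min in all 3 lines, without overlap between times within a line. RAW264.7 went from 5280 and 5845 normalized reads to 3143 and 3102, then to 938 and 1562. Line 264 went from 4330 and 5065 to 2778 and 3417, then to 846 and 1931, and line 3205 from 6514 and 6416 to 4170 and 4612, then to 1731 and 3087. Abcg1 fell by limma in RAW264.7 at 60 min (-0.83 ± 0.13, adjusted p = 0.00744), in RAW264.7 at 120 min (-2.20 ± 0.39, 0.00616) and in line 264 at 120 min (-1.87 ± 0.39, 0.0216). The other 3 responses missed the threshold and passed it with the replicate block: line 264 at 60 min (-0.60 ± 0.13, 0.0719, or 0.0061 with the block), line 3205 at 60 min (-0.56 ± 0.13, 0.106, or 0.00922) and line 3205 at 120 min (-1.48 ± 0.39, 0.0617, or 0.00339). The RAW264.7 calls were lost without RAW264.7 replicate 2 of 0 min (0.0957 at 60 min and 0.0587 at 120 min), without either 60 min library (0.0617 and 0.0786) and without replicate 1 of 120 min (0.0639). The call in line 264 was lost without either 0 min library (0.101 and 0.1), without replicate 1 of 120 min (0.129), without an intensity trend (0.067) and with only the groups compared (0.0818).

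In RAW264.7 Abcg1 was also the sole member called at 60 min (1 of 8, 2.98% of all genes) and at 120 min (1 of 8, 10.6% of all genes). Line 264 had 0 calls at 60 min (1.19% of all genes, 1 with the block and 1 by DESeq2) and 2 at 120 min (5.43%). Line 3205 had 0 at 60 min (1.23%, 1 with the block and 1 by DESeq2) and 0 at 120 min (5.03%, 2 with the block and 1 by DESeq2). At 60 min Abcg1 in line 264, and Cd36 and Abcg1 in line 3205, had an unadjusted limma p under 0.05. At 120 min Scarb2 and Abcg1 did in line 3205, and beside the called members Abca1 did in RAW264.7 and Scarb2 in line 264. The share of all genes at that looser threshold is not given, so this is no result about the members. With the block RAW264.7 had 3 calls at 120 min. The shares of all genes in this paragraph are those without the block, which raised the calls over all genes as well. Between 60 and 120 min Abcg1 fell further in RAW264.7 by limma (-1.37 ± 0.34, adjusted p = 0.0291), 1 of 8 members where 7.3% of all genes were called. That call was lost without any of the 60 min libraries or replicate 1 of 120 min (0.13, 0.142 and 0.245) and without an intensity trend (0.0616). Lines 264 and 3205 had 0 calls in that step (2.29% and 2.27% of all genes, and 2 each with the block), with Abcg1 at -1.27 (0.0851, or 0.0062 with the block) and -0.92 (0.276, or 0.0381 with the block). In that step Scarb2, Abcg1 and Lpl in line 264, and Scarb2 and Abcg1 in line 3205, had an unadjusted limma p under 0.05. Scarb2 and Abca1 did in RAW264.7, beside the called Abcg1. Here too no share of all genes at that threshold is given. The Abcg1 value of line 264 passed the threshold without replicate 2 of 120 min (-1.86, 0.0132).

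Abca1 was not called for LPS in any line. In RAW264.7 it stood at 1113 and 1648 at 0 min, 1101 and 1658 at 60 min, and 2367 and 4553 at 120 min, so both 120 min libraries lay above all earlier ones. The limma log2 fold change at 120 min was 1.28 ± 0.40 (adjusted p = 0.0735, 0.00337 with the replicate block and 0.00968 by DESeq2). In line 264 it was 0.33 ± 0.40 (0.751) and in line 3205 0.29 ± 0.40 (0.816), with 120 min libraries on both sides of the 0 min range in each. In every line replicate 2 was the higher library at 120 min. The difference from the RAW264.7 response was -0.94 ± 0.56 in line 264 and -0.99 ± 0.56 in line 3205, and neither was called (unadjusted p = 0.123 and 0.11, adjusted p = 1 for both).

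Lpl rose in line 264 at 120 min, from 17.3 and 30.8 to 95.2 and 72.1 normalized reads (limma 1.80 ± 0.41, adjusted p = 0.0346). That level remained far below those of the other lines. The call was lost without line 264 replicate 1 of 0 min (0.242), without either 120 min library (0.192 and 0.0906), by edgeR (0.0837, or 0.0628 with the block), without an intensity trend (0.0901) and with only the groups compared (0.155). In RAW264.7 the Lpl value at 120 min was 0.58 ± 0.41 (0.464) and in line 3205 0.67 ± 0.41 (0.508).

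Scarb2 was lower at 120 min than at 0 min in both libraries of all 3 lines, but was not called. RAW264.7 went from 2516 and 2190 normalized reads at 0 min to 2020 and 1799, line 264 from 2455 and 2150 to 1734 and 1513, and line 3205 from 2940 and 2586 to 2187 and 1978, without overlap. Limma gave -0.30, -0.50 and -0.41, each ± 0.14 (adjusted p 0.245, 0.0792 and 0.171), and with the replicate block 0.0244, 0.00257 and 0.0089. Scarb1 gave -0.27, -0.10 and -0.07 (0.271, 0.781 and 0.878).

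Cd36, Msr1 and Lipg did not pass the limma test for LPS in any line, with or without the replicate block. By edgeR with the block Lipg was called at 120 min in RAW264.7 (0.74, adjusted p = 0.0276). In RAW264.7 Cd36 gave 0.05 at 60 min and 0.37 at 120 min, Msr1 -0.01 and 0.30, and Lipg 0.72 and 0.78. Their standard errors ran from 0.55 to 0.91 in the fit over all groups. With only the RAW264.7 groups compared they were 0.23 and 0.26 for Cd36, 0.14 for Msr1 at both times and 0.50 and 0.53 for Lipg, and no adjusted p was below 0.232. In line 3205 Cd36 gave 2.17 at 60 min (0.341), which without the 0 min replicate 1, the sole library of that group with a read, became 3.57 (0.00263).

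**Figure D3:**
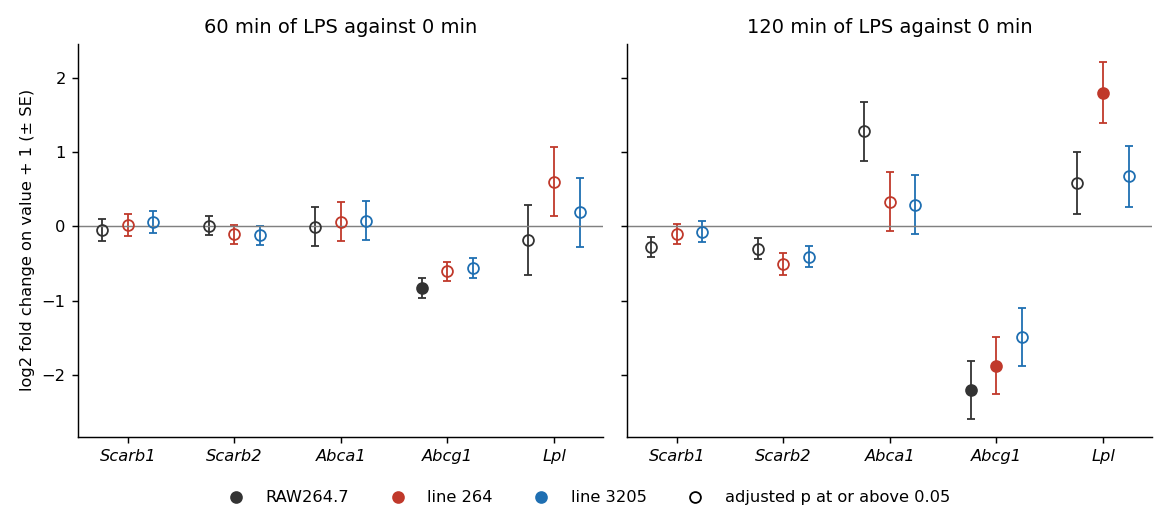
Limma log2 fold changes at 60 min (left) and 120 min (right) of LPS against 0 min in RAW264.7, line 264 and line 3205 for Scarb1, Scarb2, Abca1, Abcg1 and Lpl, on log2(value + 1). Bars are standard errors, n = 2 libraries per group, and open symbols have an adjusted p at or above 0.05. Abcg1 lies below 0 in all 6 cases, between -0.56 and -2.20.

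The third question was whether the lines differed in their response. None of the 4 differences of responses was called for a member (0 of 8 in each, by limma, by edgeR, by DESeq2 and with the block), where 0.0173% and 0.00578% of all genes were called at 60 min and 0.0229% and 0.00573% at 120 min. No member had an unadjusted p below 0.05 in these tests. The smallest were 0.0628 for Cd36 in line 3205 at 60 min (2.12 ± 1.01) and 0.0648 for Lpl in line 264 at 120 min (1.21 ± 0.58). For Abcg1 the difference from RAW264.7 was 0.23 ± 0.18 and 0.27 ± 0.18 at 60 min, and 0.33 ± 0.55 and 0.71 ± 0.55 at 120 min, in lines 264 and 3205. A p above the threshold does not show that the responses were alike.

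Other genes of lipoprotein uptake and cholesterol traffic were read from 5 lists. For the counts that follow, 13.2% and 14.3% of all genes were called in lines 264 and 3205 against RAW264.7 at 0 min, 15.3% and 15.4% at 60 min, and 13.5% and 13.9% at 120 min. Of 14 tested scavenger and lipoprotein uptake receptors, 0 were higher and 6 lower in line 264 than in RAW264.7 at 0 min, and 2 were higher and 3 lower in line 3205. Cxcl16, a membrane-bound chemokine that also binds oxidised LDL, stood at 3461 and 2580 normalized reads in RAW264.7, against 0.91 and 5.13 for line 264 and 2.57 and 5.98 for line 3205 (limma -9.77 ± 0.58, adjusted p = 4.03e-06, and -9.23 ± 0.58, 6.33e-06). The mannose receptor Mrc1 was lower in line 264 (-4.80, 0.00328) and not in line 3205 (-0.31, 0.873), and the log2 fold change of line 3205 over line 264 was 4.49 (0.00643, or 0.0739 with only the groups compared). The collectin receptor Colec12 was lower in line 264 (-0.99, 0.000729). In line 3205 it stood at 10185 and 11306, also below the 14810 and 13600 of RAW264.7. Scarf1, a receptor for acetylated LDL on endothelium, was low in both edited lines. It stood at 135 and 30.1 in RAW264.7, against 1.82 and 2.57 for line 264 and 5.99 and 1.20 for line 3205. Its call in line 3205 (-4.05, 0.0109) was lost without RAW264.7 replicate 1 (0.101) or line 3205 replicate 2 (0.0635) and with only the groups compared (0.0571). Mertk, a receptor for apoptotic cells, was higher in line 3205, with 128 and 95.6 against 5.44 and 4.63 in RAW264.7 and 12.7 and 1.71 in line 264 (4.21 ± 0.72, 0.00356). At 60 and 120 min 1 and 0 of these genes were higher and 6 and 6 lower in line 264, and 2 and 2 higher and 4 and 3 lower in line 3205.

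Among 9 tested LXR, RXR, PPAR and corepressor genes, 1 was higher and 1 lower than in RAW264.7 at 0 min in each line. Pparg, which encodes PPAR gamma, stood at 22.9 and 30.1 normalized reads in RAW264.7, had no read in any of the 6 libraries of line 264, and stood at 1.71 and 1.20 in line 3205. It was at least 19.9-fold lower in line 264 at 0 min, and limma gave an adjusted p of 0.000116 in line 264 and 0.000876 in line 3205. Pparg passed the filter on mean level through RAW264.7 alone, so these calls are a description. The second gene was Ppard in line 264 (1.07 ± 0.17, 0.00267) and Rxra, the partner of LXR and PPAR, in line 3205 (1.31 ± 0.23, 0.0041). Nr1h3, the gene for LXR alpha, stood at 163 and 160 in RAW264.7, against 70.1 and 129 for line 264 and 177 and 249 for line 3205. The log2 fold change of Nr1h3 in line 3205 over line 264 was 1.13 (0.0448), a call lost without line 264 replicate 1 (0.215), without either library of line 3205 (0.0561 and 0.182), by edgeR (0.0568), and under 5 other settings (adjusted p from 0.0503 to 0.297).

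Of 16 LXR targets other than the members, 1 was higher and 3 lower in line 264 than in RAW264.7 at 0 min. In line 3205, 2 were higher and 2 lower. Nr1h3 stood both in this list and in that of the regulators. Pltp, the phospholipid transfer protein of HDL, stood at 2662 and 1132 in RAW264.7, against 19.1 and 8.55 for line 264 and 21.4 and 2.39 for line 3205 (-6.97, 0.000413, and -7.64, 0.000249). Apoc2, the apolipoprotein that activates lipoprotein lipase, was higher in both, with 11.98 and 16.2 in RAW264.7, against 35.5 and 44.5 for line 264 and 711 and 574 for line 3205 (1.45, 0.0157, and 5.42, 5.07e-06). The Apoc2 call in line 264 was lost without RAW264.7 replicate 1 (0.113), without line 264 replicate 2 (0.0853) and with only the groups compared (0.132). Apoc1, its neighbour in the apolipoprotein cluster, had no read in RAW264.7 and 14.6 and 19.1 in line 3205, at least 9.78-fold higher. Apoc1 passed the filter on mean level through line 3205 alone. Smpdl3a, a secreted phosphodiesterase, was lower in line 264 (-3.45, 0.000458). In line 3205 it stood at 370 and 165, also below the 842 and 547 of RAW264.7.

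**Figure D4:**
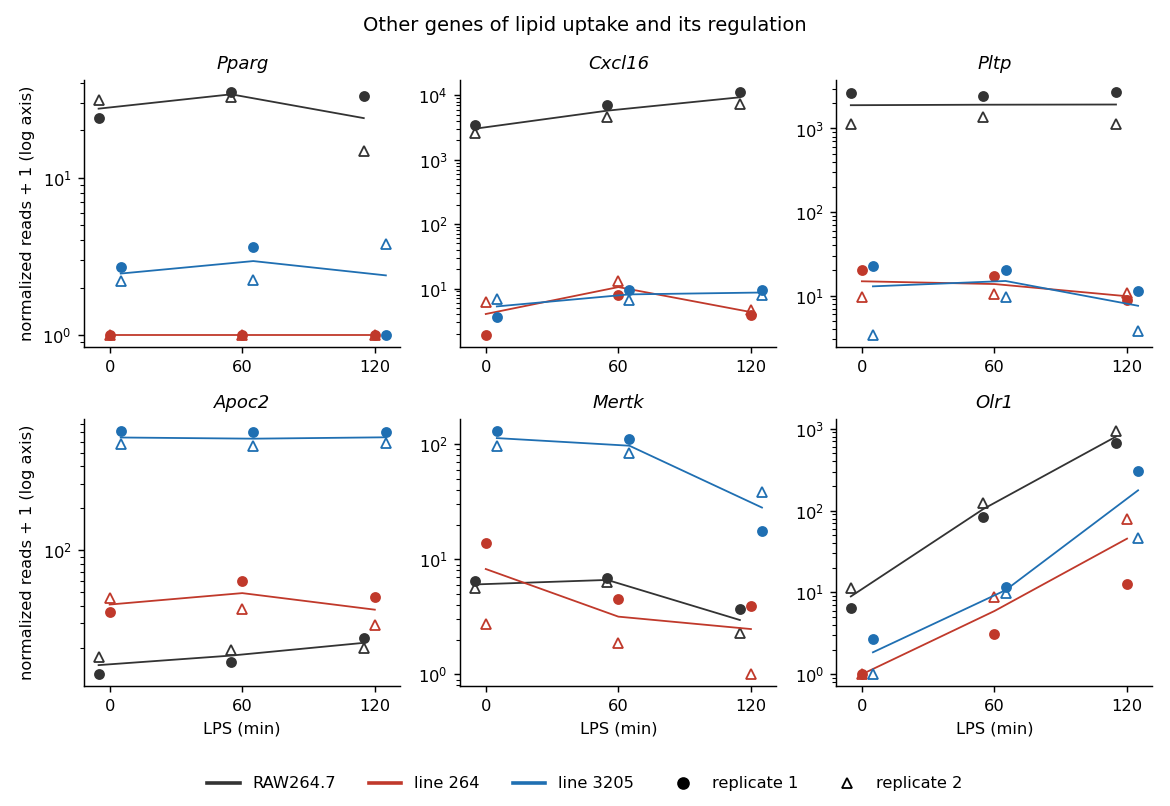
Normalized reads plus 1 (log axis) of 6 other genes of lipid uptake and its regulation against minutes of LPS. Each symbol is 1 library, and lines join the means of 2 libraries. Pparg, Cxcl16 and Pltp are lower in both edited lines than in RAW264.7 at all times, Apoc2 and Mertk are highest in line 3205, and Olr1 is higher at 120 min than at 0 min in each line.

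Of 17 tested genes of intracellular cholesterol handling, 3 were higher and 2 lower in line 264, and 2 higher and 0 lower in line 3205. Soat1, which esterifies cholesterol for storage, stood at 8358 and 8661 in RAW264.7, against 11336.5 and 11885 for line 264 and 14136 and 14893 for line 3205 (0.45 ± 0.10, 0.016, and 0.77 ± 0.10, 0.000794). The Soat1 call in line 264 was lost without any 1 of its 4 libraries (0.05 to 0.109). Abca5, a lysosomal transporter, gave 1.65 (0.0137) and 1.81 (0.00833), and Osbp, an oxysterol binding protein, 0.52 (0.0134) in line 264. In line 264 the Abca5 call was lost without either of its own libraries (0.0631 and 0.0608) or RAW264.7 replicate 2 (0.11), and the Osbp call without either of its own libraries (0.0617 and 0.0548) or RAW264.7 replicate 1 (0.123). In line 3205 the Abca5 call was lost without line 3205 replicate 1 (0.0545) or RAW264.7 replicate 2 (0.0722). With only the groups compared, Abca5 was lost in both lines (0.0622 and 0.0877), and in line 264 Osbp (0.085) and Soat1 (0.109). Fitted with the 120 min libraries, Osbp (0.0531) and Soat1 (0.053) were lost in line 264.

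Of 13 tested lipases and fatty acid handlers, 0 were higher and 1 lower in line 264, and 3 were higher and 1 lower in line 3205. Fabp4, the fatty acid binding protein that marks fat cells and lipid-laden macrophages, stood at 26.1 and 11.6 in RAW264.7, against 0.91 and 1.71 for line 264 and 402 and 169 for line 3205. It was lower in line 264 (-3.02, 0.024) and higher in line 3205 (3.82, 0.00729), and line 3205 over line 264 gave 6.84 ± 0.74 (0.000338). The call in line 264 was lost without RAW264.7 replicate 1 (0.177) or either library of line 264 (0.118 and 0.0621), and that in line 3205 without line 3205 replicate 1 (0.0553) or RAW264.7 replicate 2 (0.0669). Fabp5 (1.93, 0.00548) and Dgat1, which makes triglyceride (0.92, 0.00578), were higher in line 3205. The Dgat1 call was lost without RAW264.7 replicate 2 (0.0512) and with only the groups compared (0.0561). Fitted with the 120 min libraries, Fabp4 was lost in both lines (0.135 and 0.0547), and with a pseudocount of 5 in line 264 (0.0652).

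Under LPS the lists were counted the same way. In RAW264.7 at 120 min, where 10.6% of all genes were called, they were 2 higher of 14 uptake receptors, 1 higher and 2 lower of 9 regulators, 1 lower of 16 LXR targets, 2 higher and 1 lower of 17 cholesterol handling genes, and 1 lower of 13 lipases and fatty acid handlers. At 60 min RAW264.7 (2.98% of all genes) had 1 higher of the 14, 0 of the 9 and 1 lower of the 16. It had 2 higher of the 17 and 1 lower of the 13. Lines 264 and 3205 had 1 and 2 higher of the 17 at 60 min and no other call (1.19% and 1.23%). At 120 min line 264 (5.43%) had 1 higher of the 14 and 1 higher and 1 lower of the 9. It also had 2 higher of the 17 and 1 lower of the 13. Line 3205 (5.03%) had 1 higher of the 14, 2 higher and 1 lower of the 9 and 1 lower of the 13. In RAW264.7 at 60 min Insig1, the sterol-sensing retention protein, went from 3230 and 3562 to 12906 and 15538 normalized reads (2.06 ± 0.34, 0.0105). Insig1 rose in the other lines too (2.24, 0.0105, and 2.396, 0.00706). Olr1, the receptor LOX-1, gave 3.58 (0.0186), Mylip, the ligase that degrades LDL receptors, -1.74 (0.0315), and Angptl4, a lipoprotein lipase inhibitor, -2.06 (0.00936). Each of these 4 calls in RAW264.7 was lost without any 1 of its 4 libraries, with adjusted p from 0.0576 to 0.192. The Insig1 calls of the other lines were lost without line 264 replicate 1 of 0 min (0.108), either 60 min library of line 264 (0.0714 and 0.0969) or line 3205 replicate 2 of 60 min (0.0811). Without an intensity trend Insig1 in line 264 (0.0531) and Mylip in RAW264.7 (0.0766) were lost, and Insig1 in line 3205 with only the groups compared (0.275).

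At 120 min Olr1 rose in all 3 lines. It went from 5.44 and 10.4 to 673 and 928 in RAW264.7 (6.53 ± 1.01, 0.0031), from no read to 11.8 and 77.0 in line 264 (0.0198), and from 1.71 and 0 to 306 and 45.1 in line 3205 (0.00731). The line 264 call was lost without either 0 min library (0.113 and 0.0786) or replicate 2 of 120 min (0.123), by edgeR (0.0601), without an intensity trend (0.0508), with a pseudocount of 5 (0.0912) and with only the groups compared (0.0726). The line 3205 call was lost without replicate 1 of 120 min (0.0573) and with only the groups compared (0.0807). Axl, a receptor for apoptotic cells, rose in RAW264.7 (2.56 ± 0.32, 0.00106), and Gramd1a, which carries cholesterol from the plasma membrane to the endoplasmic reticulum, rose in RAW264.7 (1.22, 0.00329) and line 264 (1.84, 0.000483). Axl also went from 155 and 215 to 388 and 344 in line 264, not called. In line 3205 Axl went from 61.6 and 43.0 to 49.7 and 38.2. Gramd1a also went from 1335 and 1188 to 2472 and 1810 in line 3205, not called. Angptl4 fell in all 3 lines (-2.68, 0.0157, -2.84, 0.0197, and -2.39, 0.0441). These Angptl4 calls were lost without either 0 min library and without replicate 1 of 120 min in each line, and without replicate 2 of 120 min in line 3205, with adjusted p from 0.065 to 0.195. Without an intensity trend the Angptl4 calls of lines 264 and 3205 were lost (0.054 and 0.0951), as were line 264 with only the groups compared (0.0901) and line 3205 without a filter (0.0604).

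The profiles most like each member over the 9 group means, by Pearson r of log2(CPM + 1), with CPM the reads scaled to library depth, were those of Ppic (r = 0.9996) and Lyz1 (0.9994) for Cd36, Ptchd1 and Pvrl3 for Msr1 (0.9967 and 0.9937), Igf1 and Ppp2r3c for Lpl (0.9957 and 0.9948), and Ppic and Spink5 for Lipg (0.9987 and 0.9982). Scarb1 was most like Gmnn (0.9937) and Scarb2 most like Mat2b (0.9884). Abca1 was most like Mrpl27 (0.9692) and Abcg1 most like Cep97 (0.9923). These genes come from the same libraries, were picked as the highest of all, and the values are a description with no test.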

How the data were processed

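RNA from 18 libraries (RAW264.7, line 264 and line 3205 at 0, 60 and 120 min of LPS, 2 each) was analysed. Per the submitters' processing notes, the tools used in the series include Trim Galore 0.5.0, STAR 2.4.2, featureCounts of Subread 1.4.6, DESeq2 and R 3.4.0, with the mm10 build, but not which step used which. The deposited signal values are reads divided by 1 size factor per library: multiplied back, 100% of values in each library were whole within 0.1 read, so reads were recovered. The 60 min and 120 min tables repeat the 0 min libraries with the same reads and share 1 normalization, although the design had assumed separate ones. Libraries held from 13084927 to 53860392 reads.

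Genes with a mean of at least 1 were tested with limma 3.58.1 (intensity trend) on log2(value + 1), the 12 libraries of a table in 1 fit. That gave 17301 genes in the 60 min table and 17450 in the 120 min table. The 120 against 60 min comparison used all 18 libraries. There were 22 comparisons, with Benjamini-Hochberg adjustment over all genes and a threshold of 0.05, edgeR 4.0.16 and DESeq2 1.42.0 on the recovered reads being alternatives. Others were TMM scaling, pseudocounts of 0.5 and 5, no filter, no trend, the 0 min libraries as fitted with the 120 min table, a replicate block, each library left out, and only the groups compared, the last chosen after seeing the data. Counting intervals are 95% and folds against groups without reads use a floor of 3 reads over the group.

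Replicates 1 and 2 deviated together in all 15 pairs of groups of each table (r of the replicate differences from 0.339 to 0.831 and from 0.385 to 0.761, over genes with a mean of at least 50), and the labels do not say what a number shares. On simulated counts for LPS 60 min in RAW264.7, the limma test recovered 45 and 47 of 100 genes changed 2-fold and 90 and 92 of 100 changed 4-fold. There were 8 and 6 false calls among 14495 genes. The changed genes all had a mean of at least 50 reads, the lines did not differ, and replicate numbers shared nothing. These rates thus do not describe genes with few reads, groups at 0 reads or the line comparisons. All 9 members were named, and from each pathway list up to 3 called genes with the smallest adjusted p per comparison. 1 of the genes picked by this rule is not reported here. The members and lists were chosen with earlier results of these data known. Software was Python 3.11.15, pandas 2.3.3, scipy 1.17.1 and R 4.3.3.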

Additional observations from a re-analysis of the deposited data

How the results depend on the processing

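No member changed direction with its call under any alternative run. Leaving out 1 library kept 797 of the member results on the same side of the threshold, ended 32 and added 3, and the other settings kept 1687, ended 19 and added 66. Limits are 2 libraries per group, so that many calls near the threshold rest on each of them, and a shared spread that includes groups at or near 0 reads. Genes with few reads cannot be ranked by fold.

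With the replicate block the counts of members called became 1 for LPS 60 min in line 264 and 1 in line 3205, 5, 6 and 6 for line 3205 against line 264 at 0, 60 and 120 min, 3 for LPS 120 min in RAW264.7, 2 for the same step of line 3205, and 3, 2 and 2 for 120 against 60 min in RAW264.7, line 264 and line 3205. It moved no other count by over 1.5 times. The block also raised the calls over all genes given below, so a higher count is no result about the members. edgeR with the replicate block gave 1 and 1, 6, 5 and 5, 4 and 2, and 3, 2 and 2 in that order. DESeq2 gave 1 and 1 for LPS 60 min in lines 264 and 3205, 4 for line 3205 against line 264 at 0 min, 2 and 1 for LPS 120 min in RAW264.7 and line 3205, and 2 and 1 for 120 against 60 min in RAW264.7 and line 264. Without an intensity trend the counts were 0 for LPS 120 min in line 264, 1 for line 3205 against line 264 at 120 min and 0 for 120 against 60 min in RAW264.7. edgeR gave 1, and only the groups compared 0, for LPS 120 min in line 264, and the latter 1 for line 3205 against line 264 at 120 min. The cause was not tested. Leaving out 1 library gave 4 to 4, 4 to 4 and 4 to 5 members for line 264 against RAW264.7 at the 3 times, 4 to 5, 3 to 5 and 4 to 4 for line 3205 against RAW264.7, and 2 to 3, 2 to 3 and 1 to 2 for line 3205 against line 264. It gave 0 to 1, 0 to 0 and 0 to 1 for LPS 60 min in RAW264.7, line 264 and line 3205, 0 to 1, 0 to 1 and 0 to 0 for LPS 120 min, 0 to 1, 0 to 1 and 0 to 0 for 120 against 60 min, and 0 to 0 for each difference of responses. Over all genes the calls in RAW264.7 went from 515 to 1398 at LPS 60 min and from 1849 to 4137 at LPS 120 min with the block. Those in line 264 against RAW264.7 at 0 min went from 2280 to 4037 with the block and to 1450 with only the groups compared, and those in line 3205 from 2476 to 4581 and 1157.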
